A study of Homo sapiens with 6 samples.

Results

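Levels of 6 genes for proteins that organise chromosomes and the nucleus were followed after drug treatment of NCI-H292, a cell line from a human lung cancer: TOP2A, MKI67, LMNB1, HMGB1, HMGB2 and HMGA2. They were taken by symbol from the authors' deposited table of changed genes, which held 1305 genes, and all 6 were found there. The cells had received 50 nM mitoxantrone for 48 hours, or the solvent DMSO at a 1 in 1000 dilution for the same time. RNA was sequenced from 3 libraries per treatment. Mitoxantrone traps type II topoisomerase on DNA and leaves DNA breaks, and the series title speaks of senescence, a lasting arrest of cell division. Whether the libraries of a treatment stem from separate cultures is not stated, so p-values reflect no more than the spread among these samples, which may be technical.

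Topoisomerase IIα (TOP2A) passes one DNA duplex through another and untangles sister chromosomes before they part. Ki-67 (MKI67) coats the surface of mitotic chromosomes and marks dividing cells. Lamin B1 (LMNB1) is a filament protein of the nuclear lamina, and its loss is a common marker of senescence. HMGB1 and HMGB2 are abundant proteins that bend DNA through their HMG boxes, and HMGB1 is also known to leave the nucleus and act as an alarm signal outside the cell. HMGA2 binds AT-rich DNA through AT hooks, is active in embryonic and tumour cells, and has been found in the condensed chromatin foci of senescent fibroblasts.

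Mitoxantrone-treated cells held less RNA of 5 of the 6 genes and more of HMGA2. HMGB2 fell most among them, 3.78-fold, followed by LMNB1 (2.93-fold), MKI67 (2.51-fold), HMGB1 (2.33-fold) and TOP2A (2.08-fold), while HMGA2 rose 3.41-fold. By edgeR's quasi-likelihood test, adjusted after Benjamini and Hochberg, 5 members passed a threshold of 0.05 as lower and 1 as higher. In the same fit 35.3% of the listed genes were called lower and 56.7% higher, 92% in all, so passing the test does not set the members apart from the table. The authors had kept only genes that changed at least 1.0 on the log2 scale: 4.33% of the 18310 or so genes they tested were listed as higher and 2.8% as lower, 7.13% in all. The direction and the size of each change are therefore given as a description of genes already selected as changed on these libraries. In bulk RNA, fewer cells that express a gene and less RNA per cell cannot be told apart.

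The size of the folds depended on the scaling. Size factors taken from the table itself, a selection of changed genes, moved the median log2 fold change of all genes by -0.66 (TMM) and -0.99 (DESeq2). They gave 398 higher and 512 lower calls or 219 and 512, against 740 and 461 with the authors' factors, so that 43.7% or 30% of the calls were higher, against 61.6%. HMGA2 kept a positive log2 fold change under both, at 1.11 and 0.78, and the 5 other members stayed negative.

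**Figure D1:**
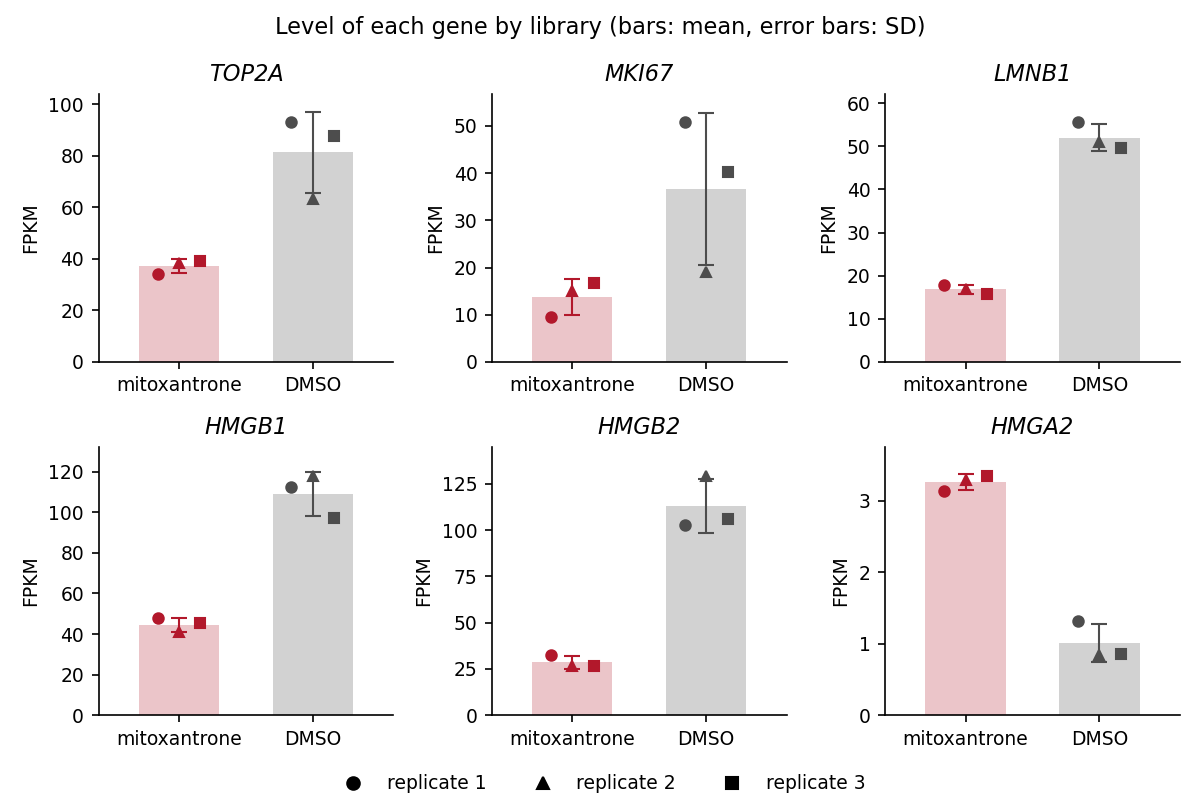
FPKM (reads scaled by gene length and library total) of each gene in 3 mitoxantrone and 3 DMSO libraries; bars are means, error bars SDs and symbols replicates. The mitoxantrone libraries lie below the DMSO libraries for TOP2A, MKI67, LMNB1, HMGB1 and HMGB2 and above them for HMGA2, and MKI67 spreads most, with DMSO values of 50.8, 19.0 and 40.2 FPKM.

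The libraries held 14762544 to 15663331 reads with mitoxantrone and 15789358 to 17817760 with DMSO, computed from the deposited FPKM values, and each member was covered by at least 765 reads per group. In normalized reads each of the 6 members had separate ranges in the 2 treatments, which was so for 98.6% of all listed genes. In FPKM the share was 97.9%. Of 11 epithelial marker genes, KRT8 and KRT18 were listed, with a summed level of 1833 to 2191 FPKM with mitoxantrone and 742 to 957 FPKM with DMSO. The listed markers of other cell types were COL1A1 (fibroblasts), CDH5 (endothelium) and CD14 (immune cells), at 0.73 to 1.02, 1.93 to 2.42 and 0.79 to 0.88 FPKM with mitoxantrone and 1.83 to 2.61, 3.98 to 5.68 and 1.51 to 2.44 FPKM with DMSO. The other markers were not analysed here, so the cell type could not be checked further, and the part of these markers in the results was not tested.

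TOP2A encodes a type II topoisomerase, the class of enzyme that mitoxantrone traps. The gene had 3661, 4032 and 4015 normalized reads with mitoxantrone, against 9062, 6645 and 8609 with DMSO. The DMSO libraries were spread more widely, and DMSO replicate 2 was the lowest of them. The means were 3903 ± 209 with mitoxantrone and 8105 ± 1285 with DMSO (SD, n = 3 each). Its log2 fold change was -1.05 with a standard error of 0.15 and an adjusted p of 1.2e-04 (edgeR). Ordered by fold change from the most negative, TOP2A was number 491 of the 512 lower genes, close to the fold at which the table stops. No other of the 9 genes chosen for topoisomerases and repair of their DNA adducts was listed; TOP2B and TOP1 were not analysed here. TOP2A is listed as ENSG00000131747, placed on chromosome 17 from 38544768 to 38574202 on the minus strand, on a build not given in the sources used here whose positions differ from GRCh38.

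MKI67 had 2027, 3157 and 3423 normalized reads with mitoxantrone and 9833, 3955 and 7853 with DMSO. DMSO replicate 2 lay far below the other DMSO libraries and only a little above the highest mitoxantrone library. The log2 fold change was -1.33 with a standard error of 0.26, the largest error among the members, and an adjusted p of 0.0029 (edgeR). It was -1.62 without DMSO replicate 2 and -1.04 without DMSO replicate 1. The authors' deposited table gives -1.06 with a standard error of 0.32, a smaller change than this fit. Its values for the other members were nearer to the fitted ones, for example -1.86 for HMGB2 and 1.71 for HMGA2. A DESeq2 fit of the listed genes with the authors' size factors gave -1.33 for MKI67, as edgeR did. The reason for the gap to the deposited value was not tested. MKI67 is listed as ENSG00000148773, placed on chromosome 10 from 129894923 to 129924649 on the minus strand.

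The libraries in which MKI67 was lowest within each treatment were low for other long genes too. Among the 564 listed genes with a mean of at least 100 normalized reads, the deviation of DMSO replicate 2 from the other DMSO libraries fell with gene length (Spearman's rho of -0.59 across genes, which share libraries and are not independent). Its median log2 deviation was 0.35 in the shortest quartile of genes and -0.25 in the longest. Mitoxantrone replicate 1 deviated from its group in the same way, with a rho of -0.50 and medians of 0.17 and -0.18. The other 4 libraries had rho values from 0.25 to 0.46. Each deviation is taken from the other libraries of the group, so these positive values partly follow from the negative ones. MKI67, with a deposited gene length of 12807 bases, deviated by -0.70 in mitoxantrone replicate 1 and by -1.15 in DMSO replicate 2 on the log2 scale. Of the 141 genes in the longest quartile only 1, MKI67 itself, was that low in mitoxantrone replicate 1 and 2 in DMSO replicate 2. HMGB2, with the shortest deposited length of the members at 2775 bases, deviated by 0.34 and 0.41 in these libraries. HMGA2, the longest at 14808 bases, deviated by -0.03 and -0.23, beside medians of -0.18 and -0.25 in the longest quartile. In DMSO replicate 2 it was thus typical of long genes, with 72 of the 141 at or below it. The order of the members by deviation was not their order by length. The part of gene length in the results was not tested. Without both libraries, an alternative chosen after seeing the data, the log2 fold changes were -1.13 for TOP2A, -1.43 for MKI67, -1.60 for LMNB1, -1.20 for HMGB1, -1.89 for HMGB2 and 1.70 for HMGA2, all past the threshold.

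**Figure D2:**
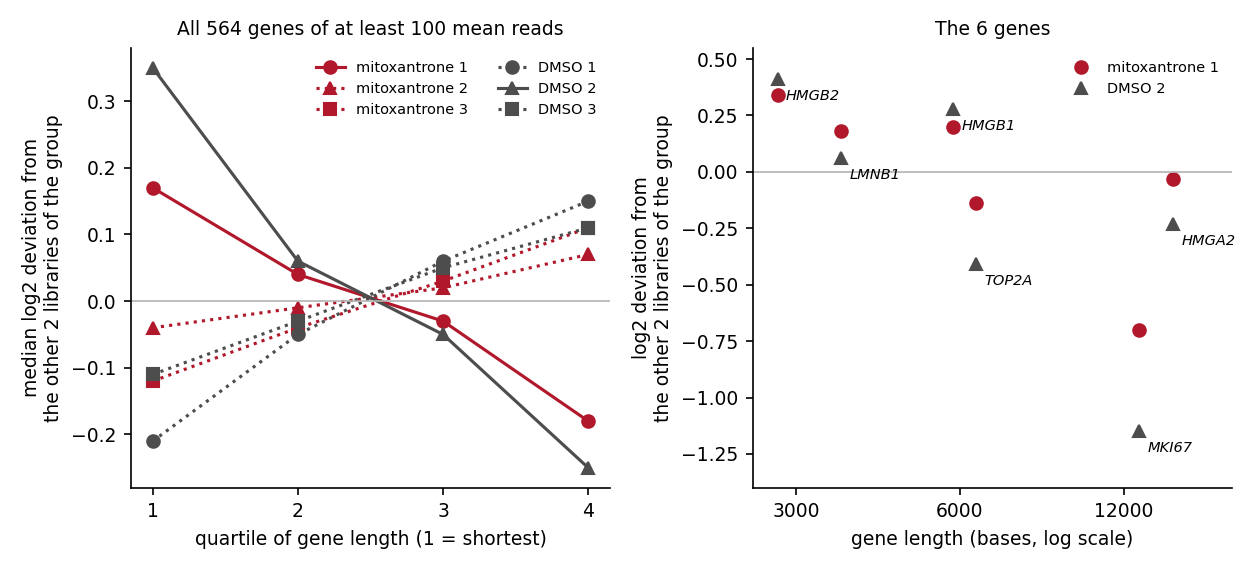
Left, median log2 deviation of each library from the other libraries of its group, by quartile of gene length, for 564 listed genes. Right, the same deviation of the 6 genes in mitoxantrone replicate 1 and DMSO replicate 2 against gene length (log scale). Both of these libraries slope downwards on the left, and on the right MKI67 is lowest, at -0.70 and -1.15.

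The listed genes with profiles closest to TOP2A and MKI67 were named by a fixed measure. Closeness was the Euclidean distance between centred log2 profiles over the 6 libraries. For TOP2A the nearest were CENPJ (distance 0.11), a centriole assembly factor, CKAP2L (0.15), a protein of the mitotic spindle, and the choline transporter gene SLC44A1 (0.16). For MKI67 they were ASPM (0.37), which acts at spindle poles, CENPF (0.47), a kinetochore protein, and CNTRL (0.49), a centriole protein. These 3 are long too, at 10887, 11663 and 9417 bases. All 3 were lowest within their groups in mitoxantrone replicate 1 and DMSO replicate 2, as MKI67 was. That likeness largely follows from choosing them by their closeness to the MKI67 profile. ASPM had 1148, 1449 and 1527 normalized reads with mitoxantrone, against 4106, 2056 and 3500 with DMSO.

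The promoters of the members that fell are shown, as far as the table used holds them, because cell cycle genes are often controlled through a few short elements: the CHR (TTTGAA), the CCAAT box bound by NF-Y, and sites of E2F factors (here TTCCCGC or TTGGCGC). Both strands were searched in the 250 bases before each start site in RefSeq's GRCh38.p14 table, in which 4 members had an entry: TOP2A, MKI67, LMNB1 and HMGB1. All 7 of their windows are printed. Capitals mark matches in either orientation.
TOP2A, chr17:40417897-40418146, minus strand: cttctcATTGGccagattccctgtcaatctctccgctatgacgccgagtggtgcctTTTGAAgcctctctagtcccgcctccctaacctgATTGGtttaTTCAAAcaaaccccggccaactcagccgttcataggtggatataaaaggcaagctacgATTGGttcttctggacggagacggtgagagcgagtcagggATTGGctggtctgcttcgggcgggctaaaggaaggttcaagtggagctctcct
MKI67, chr10:128126424-128126673, minus strand: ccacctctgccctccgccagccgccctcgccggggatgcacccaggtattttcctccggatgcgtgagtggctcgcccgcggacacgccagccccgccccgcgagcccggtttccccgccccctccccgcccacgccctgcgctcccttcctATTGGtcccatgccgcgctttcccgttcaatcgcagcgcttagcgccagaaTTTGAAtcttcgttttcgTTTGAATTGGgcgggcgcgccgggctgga
LMNB1, chr5:126776373-126776622, plus strand: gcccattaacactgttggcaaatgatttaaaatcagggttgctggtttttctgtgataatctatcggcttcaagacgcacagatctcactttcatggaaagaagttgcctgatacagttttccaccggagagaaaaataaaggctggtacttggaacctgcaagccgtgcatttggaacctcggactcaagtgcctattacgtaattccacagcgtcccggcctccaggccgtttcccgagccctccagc
LMNB1, chr5:126776886-126777135, plus strand: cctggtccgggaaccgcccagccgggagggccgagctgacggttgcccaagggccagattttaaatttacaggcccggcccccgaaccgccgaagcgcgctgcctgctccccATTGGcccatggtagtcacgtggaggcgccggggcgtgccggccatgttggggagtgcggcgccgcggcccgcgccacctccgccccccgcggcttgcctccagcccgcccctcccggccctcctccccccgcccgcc
HMGB1, chr13:30465937-30466186, minus strand: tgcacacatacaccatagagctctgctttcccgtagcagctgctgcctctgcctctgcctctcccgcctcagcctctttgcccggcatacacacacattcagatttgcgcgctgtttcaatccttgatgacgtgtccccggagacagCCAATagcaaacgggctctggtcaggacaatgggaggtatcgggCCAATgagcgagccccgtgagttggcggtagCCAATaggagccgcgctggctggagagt
HMGB1, chr13:30465241-30465490, minus strand: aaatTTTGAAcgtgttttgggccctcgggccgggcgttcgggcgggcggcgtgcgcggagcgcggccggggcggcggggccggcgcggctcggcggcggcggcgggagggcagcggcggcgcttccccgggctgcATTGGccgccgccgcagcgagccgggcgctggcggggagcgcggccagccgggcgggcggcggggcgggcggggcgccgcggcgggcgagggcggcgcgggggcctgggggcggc
HMGB1, chr13:30617598-30617847, minus strand: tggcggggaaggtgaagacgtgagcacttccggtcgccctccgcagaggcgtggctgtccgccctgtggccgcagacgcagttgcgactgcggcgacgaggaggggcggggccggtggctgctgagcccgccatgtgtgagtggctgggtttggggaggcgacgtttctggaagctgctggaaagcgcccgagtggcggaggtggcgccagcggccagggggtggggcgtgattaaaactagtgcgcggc
The TOP2A window held TTTGAA 2 times and CCAAT 4 times, and the MKI67 window each of them 2 times. In MKI67 the second TTTGAA, 29 bases before the start site, shares a base with the neighbouring CCAAT match on the other strand. Neither of the 2 LMNB1 windows held TTTGAA, and 1 of them held CCAAT 1 time. Of the 3 HMGB1 windows, 1 held CCAAT 3 times and no TTTGAA, 1 held each of them 1 time, and 1 held neither. No member window matched the E2F letters, which says only that these letters are not in the windows. Of 35116 promoter windows of the same length in the table, 13.3% held TTTGAA, 32.0% held CCAAT, 4.69% held both and 2.93% held CCAAT at least 3 times. The windows of listed genes that were lower held CCAAT at least 3 times in 4.26% of 470 cases and E2F letters in 14.9%. Those of higher genes did in 1.03% and 4.57% of 679. These windows came from 312 lower and 447 higher genes, so some genes count more than once and listed genes without an entry are missing. The windows of the members are among those of the lower genes. TTTGAA was about as frequent in the windows of lower genes (13.2%) as in those of higher genes (12.2%). CCAAT stood in 37.4% and 29.3% of them, and both elements together in 7.23% and 3.83%. A match is a description of the sequence and does not show that a factor binds there.

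LMNB1, the lamina gene, had the smallest standard error of the members. It had 1084, 1002 and 917 normalized reads with mitoxantrone and 3055, 3010 and 2747 with DMSO. The groups lay far apart, with the lowest DMSO library at 2747 and the highest mitoxantrone library at 1084. Its log2 fold change was -1.55 with a standard error of 0.13 (adjusted p of 8.7e-07, edgeR), and it lay between -1.61 and -1.49 whichever library was left out. Of 15 genes chosen for the lamina and inner nuclear membrane 2 were listed, and both passed as lower, with a median log2 fold change of -1.34. The second was TMPO, which encodes the lamina-associated polypeptide 2 proteins, with 2111 ± 6.68 normalized reads with mitoxantrone and 4603 ± 323 with DMSO (SD, n = 3 each). LMNA, LMNB2 and LBR were not analysed here. The closest profiles to LMNB1 were those of CAMKK1 (distance 0.16), a kinase gene, TCF19 (0.18) and MYBL2 (0.22), a transcription factor that drives mitotic genes. LMNB1 is listed as ENSG00000113368, placed on chromosome 5 from 126112315 to 126172712 on the plus strand.

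HMGB1 had 4647, 3896 and 4198 normalized reads with mitoxantrone, against 9899, 11202 and 8650 with DMSO. In contrast to TOP2A and MKI67, its highest DMSO library was replicate 2. The log2 fold change was -1.22 with a standard error of 0.15 and an adjusted p of 2.6e-05 (edgeR). HMGB1P5, a processed pseudogene of HMGB1 on another chromosome, was listed as well, with 536, 490 and 406 normalized reads with mitoxantrone and 1195, 1176 and 1018 with DMSO. Its raw reads came to 11.5%, 12.6% and 9.7% of those of HMGB1 with mitoxantrone and 12.1%, 10.5% and 11.8% with DMSO, so the ratio overlapped between the treatments. Because the copies are close in sequence, how reads were divided between them is uncertain. The nearest profiles to HMGB1 were RFC4 (distance 0.12), a subunit of the replication clamp loader, SGCE (0.14) and WEE1 (0.16), the kinase that holds back mitosis. HMGB1 is listed as ENSG00000189403, placed on chromosome 13 from 31032884 to 31191734 on the minus strand.

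HMGB2 had 1506, 1194 and 1180 normalized reads with mitoxantrone and 4320, 5850 and 4493 with DMSO. The highest mitoxantrone library, replicate 1, was far below the lowest DMSO library. Its log2 fold change was -1.92 with a standard error of 0.16 and an adjusted p of 7.1e-07 (edgeR), number 137 from the most negative of the 512 lower genes. The nearest profile was that of NRM (distance 0.24), which encodes nurim, a protein of the inner nuclear membrane, followed by SMAD6 (0.24), an inhibitor of BMP signalling, and MXD3 (0.28), a MYC antagonist. NRM had 123, 95 and 104 normalized reads with mitoxantrone, against 360, 423 and 338 with DMSO. HMGB2 is listed as ENSG00000164104, placed on chromosome 4 from 174252846 to 174256276 on the minus strand.

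**Figure D3:**
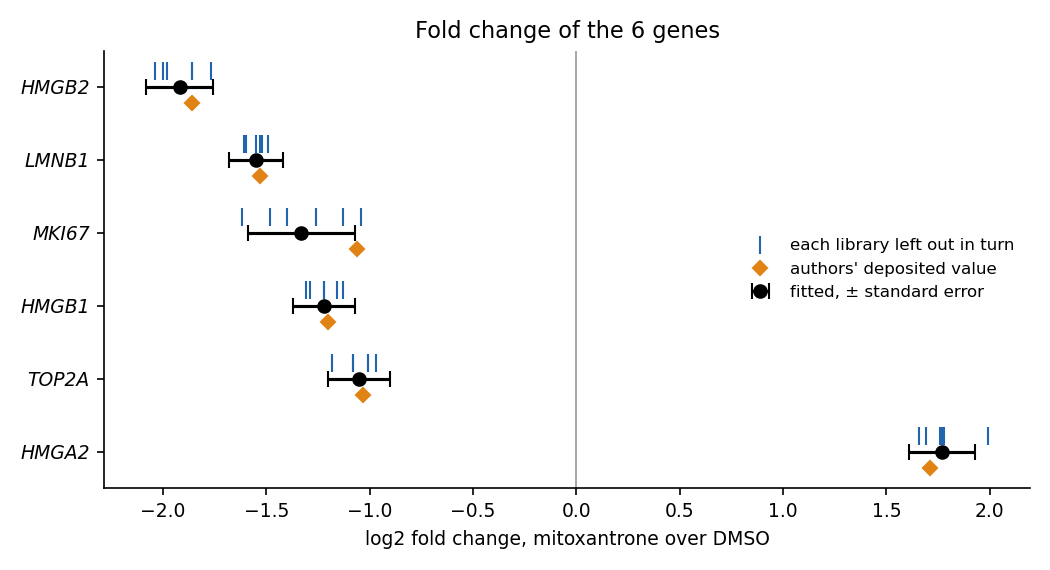
Log2 fold change (mitoxantrone over DMSO) of the 6 genes from the edgeR fit (black, with standard error), with each library left out in turn (blue ticks) and in the authors' deposited table (orange). HMGB2 lies lowest at -1.92, TOP2A nearest to zero at -1.05, and HMGA2 is the single gene to the right of zero at 1.77; the blue ticks spread most for MKI67.

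HMGA2 went the other way. It had 776, 794 and 790 normalized reads with mitoxantrone and 294, 203 and 194 with DMSO. The mitoxantrone libraries were nearly equal, and DMSO replicate 1 was higher than the other DMSO libraries. The log2 fold change was 1.77 with a standard error of 0.16 (adjusted p of 1.5e-06, edgeR), and it was 1.99 without DMSO replicate 1. Even so HMGA2 was the scarcest member per deposited length, at 3.26 ± 0.108 FPKM with mitoxantrone and 1.00 ± 0.266 FPKM with DMSO (SD, n = 3 each). That length is 14808 bases, and the level would be higher if a shorter transcript was the one expressed. Among the nearest profiles were those of ENC1 (distance 0.26) and TMCC3 (0.26), with log2 fold changes of 1.64 and 1.84.

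Other listed genes around HMGA2 also had more reads in mitoxantrone-treated cells, though few in all. The deposited positions place HMGA2 (ENSG00000149948) on chromosome 12 from 66217911 to 66360075 on the plus strand. Genes within 300 kb were examined after their values had been seen. RPSAP52, a transcribed pseudogene on the minus strand, overlaps the first 2844 bases of HMGA2 and had 10, 16 and 4 reads with mitoxantrone and 2, 1 and 1 with DMSO. Its adjusted p of 0.015 became 0.089 with TMM and 0.33 with DESeq2 factors over the listed genes, 0.15 without mitoxantrone replicate 2, 0.052 without DMSO replicate 1, 0.083 without DMSO replicate 3 and 0.094 without both DMSO replicate 2 and mitoxantrone replicate 1 (edgeR). RP11-366L20.2, annotated as antisense and lying inside HMGA2, had 11, 7 and 9 reads with mitoxantrone, against 1, 2 and 4 with DMSO, and missed the threshold with an adjusted p of 0.053 in that test. RP11-221N13.3, a long non-coding RNA gene that ends 211134 bases before HMGA2, had 7, 14 and 12 reads with mitoxantrone and 1, 0 and 0 with DMSO (adjusted p of 0.0010, edgeR). Whether the libraries kept the strand is not stated, so reads where HMGA2 and the antisense genes overlap cannot be told apart. RPSAP52 held 30 reads in all with mitoxantrone and 4 with DMSO, and RP11-366L20.2 held 27 and 7, beside 2184 and 765 for HMGA2. Among all listed genes 56.7% were called higher. Most listed neighbours of the members that fell were higher, but so were 793 of all 1305 listed genes. Unchanged neighbours are not listed, and LMNB1 and HMGB1 had no listed neighbour in this window. The neighbours of HMGA2 and of the other members therefore do not set the members apart. Near TOP2A, RP5-1028K7.2, NR1D1 and TNS4 had log2 fold changes of 1.92, 1.13 and 1.09, and near MKI67, RP11-4C20.4 had 1.44; all 4 passed, but none did with TMM or DESeq2 factors over the listed genes (edgeR). RP11-4C20.4 also lost its call without mitoxantrone replicate 1 (adjusted p of 0.075) and without DMSO replicate 1 (0.083, edgeR). Near HMGB2, SAP30 fell as HMGB2 did, with a log2 fold change of -1.38.

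**Figure D4:**
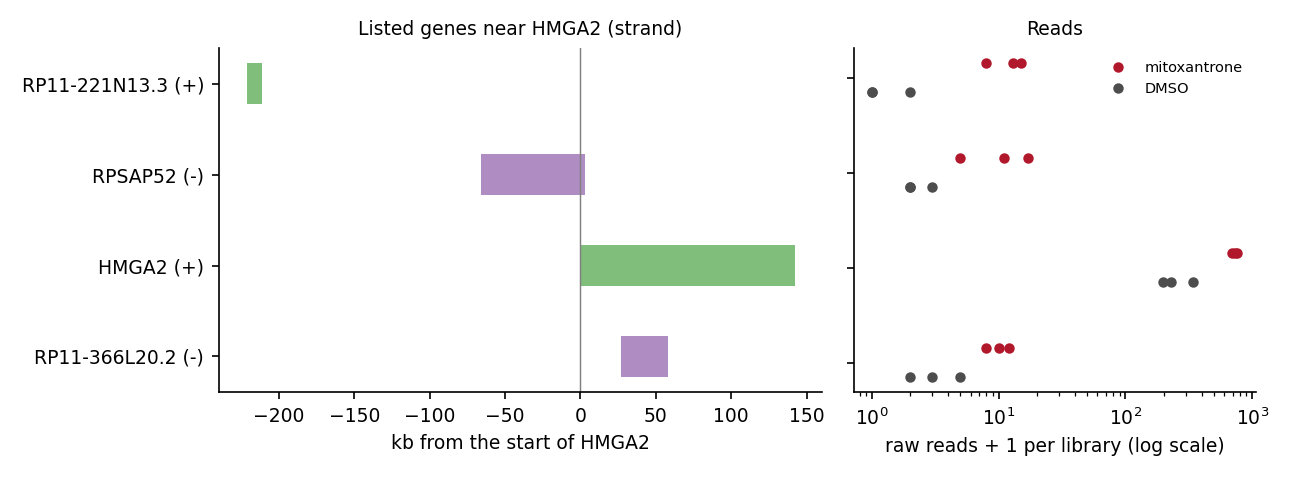
Left, the listed genes within 300 kb of HMGA2 as bars, in kilobases from its start, coloured by strand (green plus, purple minus). Right, raw reads plus 1 in each library on a log axis; the mitoxantrone libraries lie to the right of the DMSO libraries for all 4 genes.

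HMGA2 is a textbook target of the let-7 microRNAs, and the other members were compared with it on that feature. The mature sequence from RefSeq is shown with its seed, bases 2 to 8, in capitals, and below it are the seed matches in the 3′ untranslated region of an HMGA2 transcript of the GENCODE annotation (3003 bases long), with the matching bases in capitals.
hsa-let-7a-5p: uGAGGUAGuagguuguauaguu
HMGA2 site at base 21: aacgttcgatttCTACCTCag
HMGA2 site at base 1256: cactactcaataCTACCTCtg
HMGA2 site at base 1668: acttgcaaagacCTACCTCca
HMGA2 site at base 2521: caaaacacactaCTACCTCtt
All 9 let-7 family names examined, miR-98 among them, carry the same seed. That transcript held 4 matches, and the other 6 coding transcripts of HMGA2 held 0. TOP2A, MKI67, LMNB1, HMGB1 and HMGB2 held 0 in every coding transcript. Taking for each of 19098 genes its transcript with most matches, 10.2% had at least 1 and 0.0681% at least 4. The deposited counts are per gene and do not tell the HMGA2 transcripts apart. LIN28B, which blocks let-7 maturation, was the other listed gene among the 11 chosen for HMGA2 and let-7, and it fell to 45.2, 46.9 and 56.9 normalized reads with mitoxantrone, against 145, 90.7 and 122 with DMSO. Its log2 fold change was -1.26 with a standard error of 0.22 and an adjusted p of 8.7e-04 (edgeR). MicroRNA levels were not measured.

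Set against one another per deposited gene length, the members changed places. Levels of different genes depend on these lengths, which need not be those of the transcripts expressed. With mitoxantrone the order of mean levels was HMGB1 at 44.7 ± 3.44 FPKM, TOP2A at 37.2 ± 2.75, HMGB2 at 28.5 ± 3.45, LMNB1 at 16.9 ± 1.02, MKI67 at 13.8 ± 3.83 and HMGA2 at 3.26 ± 0.108 (SD, n = 3 each). With DMSO it was HMGB2 at 113 ± 14.6 FPKM, HMGB1 at 109 ± 10.8, TOP2A at 81.4 ± 15.8, LMNB1 at 52.0 ± 3.19, MKI67 at 36.6 ± 16.2 and HMGA2 at 1.00 ± 0.266 (SD, n = 3 each). Neighbours whose library ranges overlapped were LMNB1 and MKI67 in both treatments, and HMGB2 and HMGB1 in DMSO. HMGB2 thus stood below TOP2A in mitoxantrone, and above it and level with HMGB1 in DMSO.

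The ratio of HMGB1 to HMGB2 in FPKM shows that shift within each library. On the log2 scale it ran from 0.55 to 0.76 with mitoxantrone and from -0.13 to 0.13 with DMSO, with means 0.69 apart. All 15 pairs of members were compared in this way. Among the 10 pairs of genes that fell, the ratio did not overlap between the treatments in 5: HMGB2 against TOP2A, HMGB1 and LMNB1, and LMNB1 against TOP2A and HMGB1. How often the ratios of other listed genes overlap was not computed, so this count does not set the members apart. The shifts in log2 FPKM ratio were 0.87 for TOP2A over HMGB2, 0.51 for TOP2A over LMNB1, 0.36 for LMNB1 over HMGB2 and -0.33 for LMNB1 over HMGB1. Each had a p of 0.1 in an exact permutation test (two-sided), the smallest that 3 against 3 libraries allow, and 0.15 after adjustment over the 15 pairs. The ratios of TOP2A, LMNB1, HMGB1 and HMGB2 to MKI67, and of TOP2A to HMGB1, overlapped between the treatments. The single FPKM values of all 6 members had the same smallest exact permutation p of 0.1, so this design cannot reach 0.05 by that test.

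**Figure D5:**
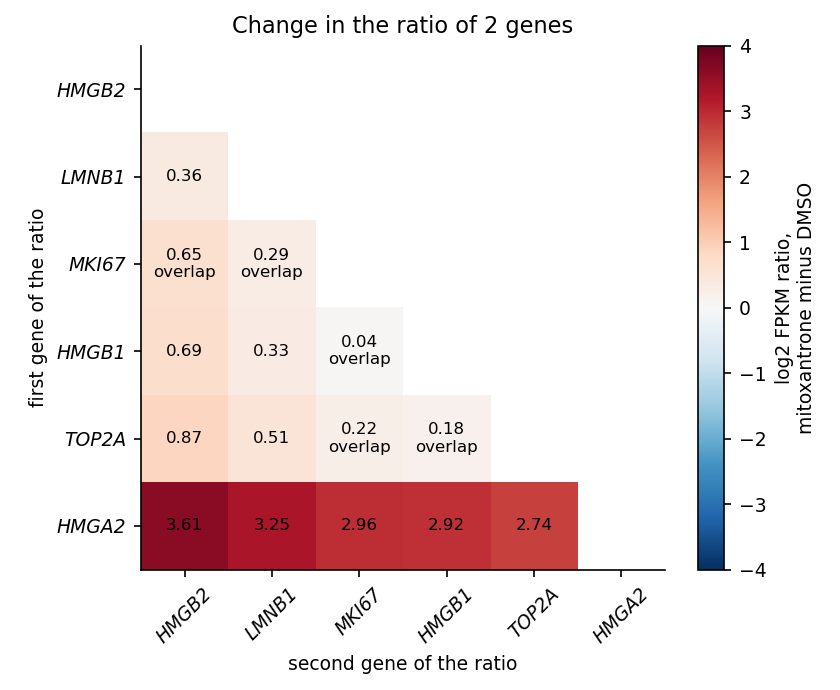
Change in the log2 FPKM ratio of the first gene (rows) to the second (columns), mitoxantrone minus DMSO, for the 15 pairs; "overlap" marks pairs whose ratios overlap between the groups of libraries. The bottom row, HMGA2 over each other gene, holds the 5 largest values, and TOP2A over HMGB2, at 0.87, is the next.

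Genes of the same families and processes were taken from lists chosen with earlier results known; most of their genes were not in the table. Of the listed genes that were higher 740 of 793 passed, and of those that were lower 461 of 512, so that a listed gene passing is close to what the selection fixes. In the HMG family list 5 of 11 genes were listed, of which 4 passed as lower and 1 as higher, with a median log2 fold change of -1.22. Besides the members these were HMGN2 and HMGN5, nucleosome-binding proteins, at 1191 ± 65.2 normalized reads with mitoxantrone against 3205 ± 516 with DMSO, and 53.7 ± 0.946 against 114 ± 17.0 (SD, n = 3 each). Of 17 genes of condensin and the mitotic chromosome 5 were listed and all passed as lower (median -1.05): TOP2A, MKI67, the condensin genes SMC2 (log2 fold change -1.03) and NCAPG (-1.06), and the kinase gene AURKB (-1.05). Of 20 proliferation markers 8 were listed and all passed as lower, with a median log2 fold change of -1.27; MYBL2 (-1.52) and the replicative helicase subunits MCM5 (-1.43) and MCM6 (-1.34) had the most negative values, followed by MKI67 (-1.33). Of 17 heterochromatin and DNA methylation genes 3 were listed, and UHRF1 (-1.32), EZH2 (-1.09) and SUV39H1 (-1.05), which maintain DNA methylation or write repressive histone marks, all passed as lower (median -1.09). The median over all listed genes was 1.26, over those that were lower -1.51 and over those that were higher 1.74.

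Of 10 cell cycle inhibitors and pocket proteins 6 were listed, with 1 passing as higher and 5 as lower (median -1.35). CDKN1A, which encodes the inhibitor p21, had a log2 fold change of 2.55, while CDKN1C had -3.36, CDKN2C -2.22 and CDKN2A -1.48. None of 12 subunits and partners of the repressor complex that silences cell cycle genes was listed. Of 8 receptors and partners of extracellular HMGB1 2 were listed and both passed as higher (median 2.77), where 56.7% of all listed genes were called higher. TLR4, a pattern recognition receptor, had 57.9 ± 6.87 normalized reads with mitoxantrone and 9.04 ± 1.86 with DMSO, and CXCR4, a chemokine receptor, 20.9 ± 5.21 and 2.86 ± 1.98 (SD, n = 3 each). The adjusted p of CXCR4 was 0.0012, and 0.073 with DESeq2 size factors over the listed genes (edgeR); its log2 fold change was 2.87, and 3.51 without DMSO replicate 2.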

How the data were processed

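RNA of NCI-H292 cells was sequenced in 3 mitoxantrone and 3 DMSO libraries. Per the submitters' processing notes the tools included HTSeq 0.6.1, HISAT2 2.0.1, DESeq2, Cufflinks 2.2.1 and cutadapt 1.9.1. The sources used here give no genome build, annotation or strand setting, and the labels' protocols name both poly(A) selection and rRNA removal. Per the file headers the deposited table gives raw read counts and FPKM per library. Also per the file headers it gives the authors' mean normalized count (a signal over all libraries), log2 fold change with its error, p-value, adjusted p-value and Wald statistic (a score).

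The table is a selection of 1305 genes: none changed by less than 1.0 on the log2 scale, and none had an adjusted p above 0.043. Adjusted over raw p-values of the top 50 ranks gave 18301 to 18318 genes tested by the authors. Their size factors were solved from the mean normalized counts (largest relative error 6.2e-10) and library totals from the FPKM values. Counts were tested with edgeR 4.0.16 (quasi-likelihood, R 4.3.3) with those factors, and Benjamini-Hochberg adjustment assumed 18310 tests and a threshold of 0.05. FPKM values and their ratios were tested on the log2(FPKM + 0.1) scale by exact permutation (scipy 1.17.1). DESeq2 1.42.0, TMM, a filter of 10 reads in 3 libraries, a pseudocount of 1, a replicate block and leaving out libraries were alternatives. The fit was tested on simulated data.

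Members and lists were chosen with earlier results of these data known. Beside the members, up to 4 listed genes per list with the largest change and the 3 nearest profiles per member (at least 100 mean normalized reads) were named; the genes beside the members, HMGB1P5 and a few further list genes were added after their values were seen. One gene that this rule names is not reported here. No library pair of a group was within counting noise. The intervals and tests cover these libraries only.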

Additional observations from a re-analysis of the deposited data

How the results depend on the processing

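The 6 members kept their direction and passed the threshold in reads under every alternative run (78 values, edgeR quasi-likelihood or DESeq2 Wald test), and their 54 FPKM values kept their direction. Leaving out each library in turn gave log2 fold changes of -1.18 to -0.97 for TOP2A, -1.62 to -1.04 for MKI67, -1.61 to -1.49 for LMNB1, -1.31 to -1.13 for HMGB1, -2.04 to -1.77 for HMGB2 and 1.66 to 1.99 for HMGA2. The adjusted p of MKI67 ran from 5.1e-09 to 0.039 over the alternatives (edgeR and DESeq2). Genes called higher numbered 398 with TMM and 219 with DESeq2 factors over the listed genes, both of which centre a table selected for change, and 622 to 715 with a library left out. Of the 5 pair ratios whose groups overlapped, 3 changed sign when a library was left out, while TOP2A over MKI67 (0.03 to 0.47) and MKI67 over HMGB2 (0.13 to 1.0) stayed positive: TOP2A over HMGB1 ranged from -0.05 (without DMSO replicate 2) to 0.32, MKI67 over LMNB1 from -0.11 (without DMSO replicate 2) to 0.58, and MKI67 over HMGB1 from -0.52 to 0.25 (without mitoxantrone replicate 1), with 0.23 and 0.16 without DMSO replicates 1 and 3. The cause was not tested. Deviations of same-numbered libraries correlated at -0.46, -0.28 and 0.26 over 563 genes, and those of mitoxantrone replicate 1 and DMSO replicate 2 at 0.63. Because the length trend of single libraries enters these values, they cannot decide whether the replicate numbers pair the samples. A fit with the number as a block gave 736 higher and 463 lower calls, and log2 fold changes of -1.04 for TOP2A, -1.26 for MKI67, -1.55 for LMNB1, -1.22 for HMGB1, -1.91 for HMGB2 and 1.79 for HMGA2. Among the other named genes RPSAP52 lost its call under 6 alternatives, RP11-4C20.4 under 5, RP5-1028K7.2, NR1D1 and TNS4 under 2 each and CXCR4 under 1. At the depth of these libraries the genes beside HMGA2 rest on a few reads each.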
